A study of Homo sapiens with 4 samples.

Results

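The DDX5 peaks that the authors called against a normal rabbit IgG control are few: 61 peaks of DDX5 chromatin immunoprecipitation and sequencing (ChIP-seq) in BT549 cells, of which 7 lie together in a short stretch of chromosome 14 and are left out here. The remaining 54 peaks are described, each with its DDX5 signal, its IgG level and the peaks that the 3 other lists of the series hold at the same place. All 4 lists together hold 57601 peaks, of which 10836 are DDX5 peaks called against input DNA, 30571 are Fra-1 peaks called against input and 16133 are Fra-1 peaks called against IgG. Every library came from untreated BT549 cells, an established human breast cancer line without oestrogen receptor alpha, grown in RPMI 1640 with 10% foetal bovine serum. The DDX5 ChIP used antibody ab21696 and the Fra-1 ChIP antibody sc-605. The IgG ChIP used the normal rabbit antibody sc-2027, and input DNA is sonicated chromatin with no antibody. There was 1 library of each, so no value below has a replicate, no difference could be tested. Shares carry 95% exact binomial (Clopper-Pearson) intervals, which account for counting error alone. Positions are on hg19, and the genes there were not analysed here.

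DDX5, also called p68, is a DEAD-box RNA helicase that unwinds RNA, takes part in splicing and in the processing of ribosomal and micro RNA, and serves as a coactivator of several transcription factors. It has no sequence-specific DNA-binding domain of the kind transcription factors carry, so in ChIP it is recovered through proteins or RNA at chromatin. Fra-1 belongs to the Fos family and pairs with a Jun protein to form AP-1, a factor that contacts its DNA motif itself. An IgG control records what is pulled down from chromatin without a specific antibody, and open, highly transcribed chromatin is known to give more of it.

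These peaks were chosen by the authors' comparison of DDX5 signal with local IgG signal, so the values of that comparison are a description. The DDX5 pileup, the depth of DDX5 fragments at the summit of a peak on the scale of the IgG library, ran from 18.95 to 216.47 with a median of 50.9. The deposited fold over IgG, taken here as the pileup plus 1 over the IgG level plus 1, ran from 1.62 to 5.43. Its median was 2.89 (interquartile range 2.30 to 3.50). The −log10 of the adjusted p-value (q) that the deposited list gives each peak ran from 1.41 to 17.7 with a median of 4.70. Peaks were narrow, from 200 to 693 bp with a median of 257 bp, and 24 of the 54 were at most 250 bp wide. The narrowest width in each of the 4 lists is 200 bp.

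IgG signal at these peaks was high. The IgG level, in IgG fragments, had a median of 17.0 and ran from 2.67 to 133. It was at least 10 at 42 of the 54 peaks (77.8%, interval 64.4% to 88.0%), whereas 13.0% of the 16133 Fra-1 peaks over IgG had a level that high. At a level of at least 20 the shares were 46.3% (32.6% to 60.4%) and 0.632% (0.516% to 0.767%). The higher the IgG level was, the higher was the DDX5 pileup (Spearman rho 0.970 over the 54 peaks) and the lower the fold (rho −0.904). Both relations are descriptions: the points share 1 DDX5 and 1 IgG library, the IgG level is the denominator of the fold, and a low fold passes a count threshold only where counts are high. In the 18 peaks with the lowest IgG levels (2.67 to 12.8) the median fold was 3.66 and the median pileup 28.9. In the 18 with the highest (27 to 133) the median fold was 2.14 and the median pileup 88.8.

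**Figure D1:**
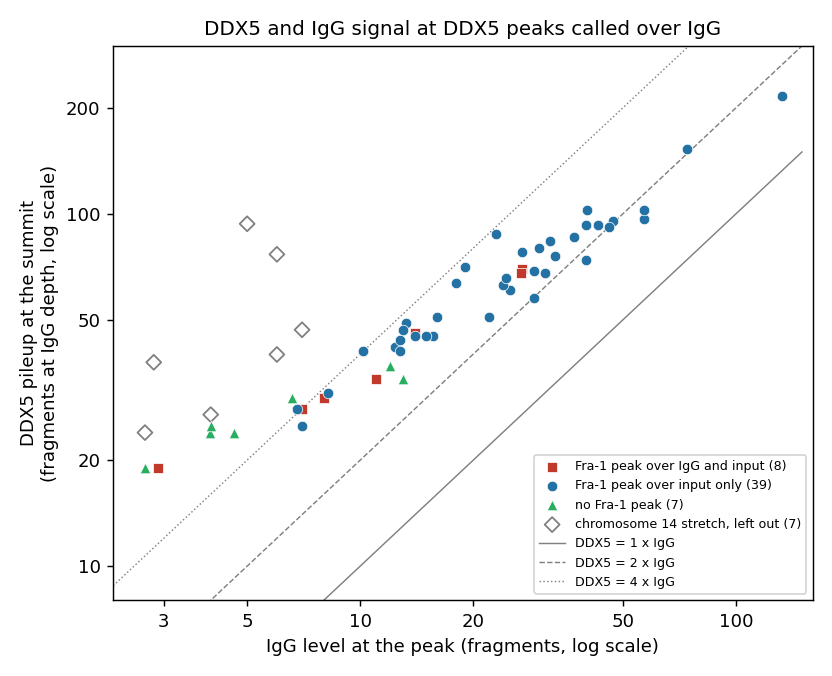
DDX5 pileup (vertical, fragments at IgG depth) against IgG level (horizontal, fragments) for the 54 peaks, both axes on a log scale, with colour and shape giving the Fra-1 peaks at the same place and lines marking DDX5 at 1, 2 and 4 times IgG. The 54 peaks run along a band of falling ratio from an IgG level of 2.67 to 133, and the 7 peaks left out on chromosome 14 (open diamonds) lie above the band at IgG levels of 2.67 to 7.0.

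The 5 peaks with the highest fold over IgG were among the weakest in DDX5 signal. The first, at chromosome 7, 126987765 to 126987964, had a pileup of 18.95, a width of 200 bp, an IgG level of 2.67 and a fold of 5.43. The second, at chromosome 9, 140311930 to 140312200, had a pileup of 24.9, a width of 271 bp, an IgG level of 4.0 and a fold of 5.19. At chromosome 17, 7653619 to 7653876, a pileup of 18.95 over an IgG level of 2.90 gave a fold of 5.12 in a peak of 258 bp. Thus few DDX5 fragments stand behind these folds: in the first, 19 were set against an IgG level of 2.67. With that level rounded to 3 and treated as a count, the counting interval of the ratio was 1.86 to 33.3. Levels such as 2.67 and 2.90 are not whole numbers, so how many IgG fragments stand behind them is not known. Another on chromosome 9, at 140069634 to 140069848, had a pileup of 23.9, a width of 215 bp, an IgG level of 3.98 and a fold of 5.01. On chromosome 19, at 19431656 to 19431855, a peak of 200 bp had a pileup of 23.9, an IgG level of 4.60 and a fold of 4.45. The IgG level of the peak on chromosome 7 is the lowest of the 54. The lowest level among the Fra-1 peaks over IgG is also 2.67, so this value stands at the floor of both lists. Whether it reflects fragments at that place cannot be told.

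At the 5 peaks with the most IgG signal, DDX5 was also among its highest and the folds were low, from 1.62 to 2.05. The top one lay at chromosome 17, 19015275 to 19015865, where a DDX5 pileup of 216.47 stood over an IgG level of 133, a fold of 1.62 in a peak of 591 bp. The counting interval of the plain ratio of the pileup to the IgG level, 1.63, was 1.31 to 2.03. At chromosome 22, 43011290 to 43011629, a pileup of 152.63 stood over an IgG level of 74.0, a fold of 2.05 in 340 bp, with a plain ratio of 2.06 (1.55 to 2.76). These are the 2 places where all of the DDX5, Fra-1 and IgG libraries were deepest among the peaks with no Fra-1 peak over IgG. At chromosome 4, 74735177 to 74735390, the pileup was 102.75, the width 214 bp, the IgG level 57.0 and the fold 1.79. The peak at chromosome 17, 41438304 to 41438509, 206 bp wide, had a pileup of 96.8, an IgG level of 57.0 and a fold of 1.69. At chromosome 6, 160113723 to 160114111, a peak of 389 bp had a pileup of 95.8, an IgG level of 47.0 and a fold of 2.02. The interval of the plain ratio lay above 1 at all 54 peaks, which the choice of peaks by this same contrast fixes.

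The peak with the smallest q of the 54 was neither of these extremes. It lay at chromosome 1, 149824189 to 149824503, 315 bp wide, with a pileup of 87.8, an IgG level of 23, a fold of 3.70 and a −log10 q of 17.7. Only 309 bp beyond it, at 149824812 to 149825232, a second peak of 421 bp had a pileup of 63.8, an IgG level of 18.0 and a fold of 3.41. Both lie inside 1 DDX5 peak over input of 1420 bp. Next in −log10 q, at 12.9, was the peak at chromosome 20, 62328011 to 62328366, with a pileup of 70.8 over an IgG level of 19.0, a fold of 3.59. The peaks at the other end of the list reached a largest q of 0.0390. That was the peak at chromosome 8, 145747703 to 145748034 (332 bp), with a −log10 q of 1.41, a pileup of 57.9, an IgG level of 29 and a fold of 1.96. On chromosome 3, the peak at 101568506 to 101568768 (263 bp) had a −log10 q of 1.49, a pileup of 73.8, an IgG level of 40.0 and a fold of 1.82. The peak at 144358202 to 144358408 on chromosome 8 also stood at 1.49, with a fold of 2.49, and so did the one at 41438304 on chromosome 17 described above. These weak calls spanned IgG levels from 13 to 57. The fifth, on chromosome 16 at 4743178 to 4743407 (230 bp), had a −log10 q of 2.08, a pileup of 24.9, an IgG level of 7.0 and a fold of 3.24. At the first 4 of these the summit lay 1 to 5 bp from an edge of the peak, so the highest DDX5 depth inside the called interval was at its border. The same held within 25 bp at 5 of the 54 peaks, the other being the one on chromosome 6 (21 bp). The list ends there, so values just outside its threshold cannot be given.

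The 5 widest peaks, from 421 to 693 bp, include the one at 19015275 on chromosome 17 and the second of the pair on chromosome 1, both given above. The widest, at chromosome 9, 136334575 to 136335267 (693 bp), had a pileup of 91.8, an IgG level of 46.0 and a fold of 1.97. It was followed after 246 bp by another, at 136335513 to 136335845, with a pileup of 102.75, an IgG level of 40.2 and a fold of 2.52. Both fell in 1 DDX5 peak over input of 3817 bp. At chromosome 19, 1106662 to 1107222 (561 bp), the pileup was 44.9, the IgG level 15.6 and the fold 2.76. The peak at chromosome 1, 110453647 to 110454160 (514 bp), had a pileup of 68.8, an IgG level of 29.0 and a fold of 2.33. A further peak lay 19.7 kb along, at 110473886 to 110474108, with 83.8, 32.0 and 2.57-fold. It fell in the widest DDX5 peak over input among the partners of the 54, 6412 bp.

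IgG was itself enriched over input at most of these peaks. The IgG and input levels were compared at equal depth for the 43 peaks whose DDX5 summit over input lay within 100 bp. The IgG level was a median of 3.82 times the input level there (interquartile range 2.02 to 7.96, range 0.779 to 18.9). For comparison, the same ratio was taken at 15388 Fra-1 peaks over IgG with a Fra-1 summit over input within 100 bp, where its median was 1.28 (0.973 to 1.84). IgG reached 4 times input at 21 of the 43 peaks (48.8%, interval 33.3% to 64.5%), against 1.07% of the Fra-1 peaks. The input level hardly followed the IgG level (rho 0.215 over 43 peaks, which share both libraries) and its median at the 53 peaks with a DDX5 peak over input was 4.81, against 3.83 in the whole DDX5 list over input. The greatest ratios were 18.9 at 19015275 on chromosome 17 and 17.3 at 43011290 on chromosome 22. IgG lay below input at 3 of the 43 peaks. Since the IgG level was used in calling, the ratio describes the peaks and tests nothing. At 4 of the 43 the input level was the lowest value that the DDX5 list over input holds.

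**Figure D2:**
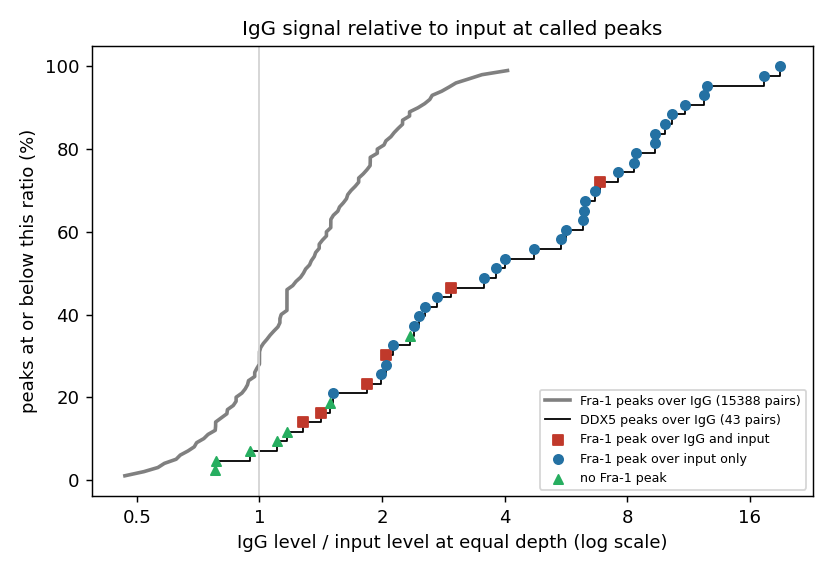
Cumulative share of peaks (vertical, %) at or below a given ratio of IgG level to input level at equal depth (horizontal, log scale), for 43 of the 54 DDX5 peaks (black steps, points by Fra-1 class) and for 15388 Fra-1 peaks over IgG (grey, percentiles 1 to 99). The median is 3.82 for the DDX5 peaks and 1.28 for the Fra-1 peaks, and the peaks with no Fra-1 peak lie at the low end, between 0.779 and 2.34.

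Nearly all of the peaks were also DDX5 peaks over input, a list that shares the DDX5 library with them. Of the 54, 53 (98.1%, interval 90.1% to 99.95%) overlapped one by at least 1 bp, and 39 had their summits within 5 bp of each other. The exception was the peak at 7653619 on chromosome 17, whose nearest DDX5 peak over input lay 32955 bp away. The 53 fell into 48 separate DDX5 peaks over input, 5 of which held 2 each. Looked at from the other list, 0.443% of the 10836 DDX5 peaks over input were called again at the 54 peaks. Taken once for each of the 53 peaks, so with 5 partners counted 2 times, the partner fold over input ran from 2.38 to 29.1. Its median was 9.27, against 4.16 for the whole list over input. Of the 54 peaks, 33 (61.1%) had a partner of at least 8-fold, which 2.28% of the list reached. Partner peaks, counted in the same way, had a median width of 1237 bp, against 285 bp in the whole list. The share called again was 0.0223% (0.000565% to 0.124%) of DDX5 peaks under 4-fold over input, 0.311% from 4-fold to 8-fold, 6.08% from 8-fold to 12-fold, 18.8% (7.21% to 36.4%) from 12-fold to 16-fold and 32.4% (17.4% to 50.5%) at 16-fold and above. By width it was 0.0765% under 500 bp, 1.13% from 500 to 1000 bp, 8.07% from 1000 to 2000 bp and 15.6% (6.49% to 29.5%) at 2000 bp and above. Of the 34 DDX5 peaks at 16-fold and above over input, 11 thus overlapped 1 of the 54 peaks. The 7 peaks left out on chromosome 14 each had a DDX5 summit over input within 100 bp. Their partners stay in the list and count as not called again in these shares. The fold over input was higher where the IgG level was higher (rho 0.812 over the 53 peaks, which share the DDX5 library).

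**Figure D3:**
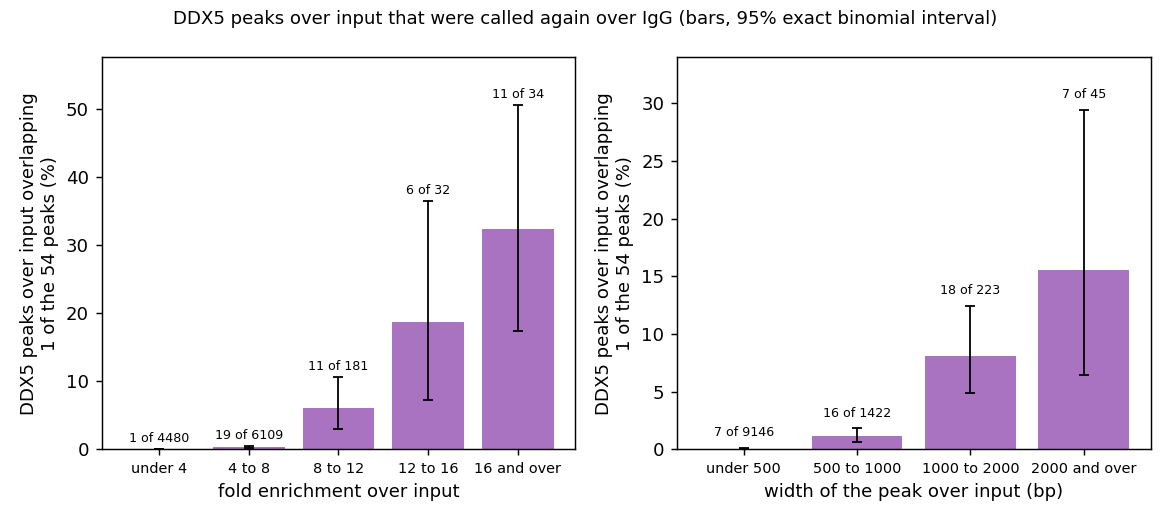
Share of DDX5 peaks over input (vertical, %) that overlap 1 of the 54 peaks, by class of fold over input (left) and of width in bp (right), with bars for the share, lines for its 95% exact binomial interval and the counts above. The share goes from 0.0223% under 4-fold to 32.4% at 16-fold and above, and from 0.0765% under 500 bp to 15.6% at 2000 bp and above. DDX5 peaks over input at the 7 peaks left out on chromosome 14 count as not overlapping.

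Fra-1 peaks over input come from 2 libraries that had no part in choosing these DDX5 peaks. Of the 54, 47 (87.0%, interval 75.1% to 94.6%) overlapped one, against 61.8% of all DDX5 peaks over input. The shares were close once DDX5 peaks of like fold over input were set beside each other. That fold and the Fra-1 peaks over input share the input library. Among peaks of 4-fold to 8-fold over input, 13 of 19 of these peaks (68.4%, 43.4% to 87.4%) and 67.4% (66.2% to 68.5%) of the whole list overlapped a Fra-1 peak. At 8-fold and above the shares were 33 of 33 (89.4% to 100%) and 96.8% (93.7% to 98.6%). For the 54, overlap was counted on the peak over IgG, and for the list on the whole peak over input. Median widths were 257 bp for the 54, 285 bp for the list and 745 bp for its peaks at 8-fold and above. The same holds for the overlaps with Fra-1 peaks over IgG below. The partners' Fra-1 fold over input had a median of 8.77 (range 2.92 to 28.1), against 5.37 for all Fra-1 peaks over input, and 26 of the 54 had a partner of at least 8-fold, which 29.5% of the Fra-1 list reached. The IgG level moved with these overlaps: 12 of the 18 peaks with the lowest IgG levels had a Fra-1 peak over input, 17 of the middle 18 and all 18 of those with the highest, and its part in them was not tested. Fra-1 summits lay a median of 101 bp from those of DDX5, and 23 of the 54 peaks had one within 100 bp. Summit distances for all DDX5 peaks over input are not given here, so whether these values are particular to the 54 cannot be told.

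Far fewer overlapped a Fra-1 peak called over IgG, which shares the IgG library with the DDX5 list. There were 8 of 54 (14.8%, interval 6.62% to 27.1%), near the 13.2% of all DDX5 peaks over input. At DDX5 peaks of 4-fold to 8-fold over input this held for 5 of 19 of these peaks (26.3%, 9.15% to 51.2%) and for 12.4% of the list. At 8-fold and above the shares were 2 of 33 (6.06%) and 6.07%. The DDX5 pileup was 0.178 to 0.344 times the Fra-1 pileup at 5 of these 8. At chromosome 20, 11248168 to 11248367 (200 bp), the Fra-1 pileup at IgG depth was 258.21, against a DDX5 pileup of 45.9 and an IgG level of 14, and the Fra-1 fold over IgG was 17.3 against 3.13 for DDX5. At chromosome 5, 57555714 to 57556052 (339 bp), Fra-1 stood at 133.53, DDX5 at 27.9 and IgG at 7.0, with folds of 14.9 and 3.62. At chromosome 3, 177077706 to 177077905 (200 bp), Fra-1 stood at 100.81, DDX5 at 27.9 and IgG at 7.0, with folds of 12.7 and 3.62. So Fra-1 was the stronger signal at each of these places. Against input, their DDX5 peaks stood at 5.98-fold, 4.47-fold and 6.03-fold. The other peak on chromosome 3 with a Fra-1 peak over IgG, at 64252097 to 64252352 (256 bp), had Fra-1 at 118.5, DDX5 at 33.9 and IgG at 11, with folds of 10.9 and 2.91.

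The fifth lay at a higher IgG level. At chromosome 20, 62330476 to 62330789 (314 bp), Fra-1 stood at 197.2, DDX5 at 67.8 and IgG at 26.8, with folds of 7.13 for Fra-1 and 2.48 for DDX5. At the remaining 3, the pileups were closer to each other. The peak at 7653619 on chromosome 17 had Fra-1 at 28.3 and DDX5 at 18.95 over an IgG level of 2.90, with a Fra-1 fold of 7.51, but the summits lay 277 bp apart, so the levels belong to different positions. The antibodies were nearly level at the last 2. At chromosome 17, 38136963 to 38137207 (245 bp), Fra-1 stood at 30.07 and DDX5 at 29.9 over an IgG level of 8.0, with DDX5 at 3.44-fold and Fra-1 at 3.88-fold over IgG. At chromosome 19, 12904382 to 12904716 (335 bp), Fra-1 stood at 76.93 and DDX5 at 69.8 over an IgG level of 27, with folds of 3.12 and 2.53. A neighbouring DDX5 peak 1792 bp before it, at 12902362 to 12902590, had a pileup of 92.8, an IgG level of 43.0 and a fold of 2.13, and no Fra-1 peak over IgG.

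At the 39 peaks with a Fra-1 peak over input but none over IgG, the DDX5 pileup was above the Fra-1 pileup at 38. Fra-1 at IgG depth, plus 1, was a median of 1.53 times the IgG level plus 1 (interquartile range 1.39 to 1.99, range 0.964 to 3.10), while DDX5 had a median fold of 2.61 over the same IgG level. Among the 17 whose Fra-1 and DDX5 summits lay within 100 bp, the Fra-1 median was 1.44. The direction is partly fixed by the split, since a Fra-1 pileup far above IgG would have been called and DDX5 had to be above IgG. At 19015275 on chromosome 17 Fra-1 stood at 128, below the IgG level of 133, and at 74735177 on chromosome 4 at 60.1, against 57.0. Over these 39 peaks the Fra-1 pileup over input followed the IgG level (rho 0.902) and the DDX5 pileup (rho 0.882), a description of single libraries at places chosen for DDX5. The exception, where Fra-1 was higher, lay at chromosome 5, 179248629 to 179248845, with a DDX5 pileup of 44.9, an IgG level of 15.0 and a fold of 2.87. It shares its Fra-1 peak over input, whose summit is 831 bp away, with the DDX5 peak at 179247949 to 179248261, which had 75.8, 33.0 and 2.26-fold.

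**Figure D4:**
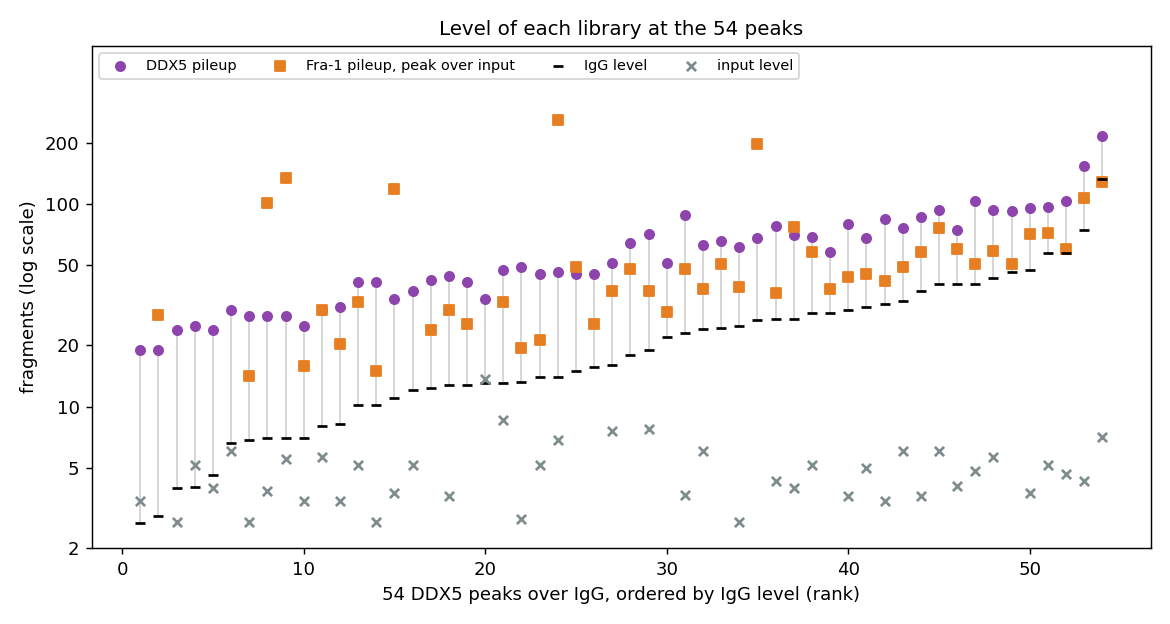
Level of each library (vertical, fragments, log scale) at the 54 peaks ordered by IgG level (horizontal, rank), with DDX5 pileup as circles, Fra-1 pileup of an overlapping peak over input as squares, IgG level as dashes and input level, at DDX5 depth and for DDX5 summits within 100 bp, as crosses. DDX5, IgG and most Fra-1 values rise together from left to right while input stays between 2.68 and 13.7, and the Fra-1 values far above DDX5 belong to peaks with a Fra-1 peak over IgG.

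The 7 peaks that overlapped no Fra-1 peak were weak in DDX5 and low in IgG. Their DDX5 pileup had a median of 24.9 (range 18.95 to 36.9), against 65.8 in the 39 peaks with Fra-1 over input only. Their IgG level had a median of 4.60 (2.67 to 13.0), against 24.4 in the 39. The 8 peaks with Fra-1 over IgG were also low in both, with medians of 31.9 and 9.50. Low signal was thus not particular to the peaks without Fra-1. The IgG level of the 7 was a median of 1.10 times input (0.779 to 2.34, n = 7). That ratio was 6.26 (1.52 to 18.9, n = 30) among the 39 and 1.94 (1.28 to 6.86, n = 6) among the 8. Of the 5 peaks with the highest fold over IgG, 4 are among these 7: those on chromosomes 7 and 19 and the 2 near the end of chromosome 9. The peak at chromosome X, 153774848 to 153775068 (221 bp), had a pileup of 29.9, an IgG level of 6.60 and a fold of 4.07. On chromosome 9, the one at 139009950 to 139010201 (252 bp) had a pileup of 36.9, an IgG level of 12 and a fold of 2.92. The last, at 144358202 on chromosome 8 (207 bp), had a pileup of 33.9, an IgG level of 13 and a fold of 2.49. Distance to the nearest Fra-1 peak over input split them: it was 113, 235 and 248 bp for the peak on chromosome 8, the one at 139009950 on chromosome 9 and the one on chromosome 19. For the other 4 it was 4276 bp (X), 5280 and 13050 bp (chromosome 9) and 44411 bp (chromosome 7). All 7 overlapped a DDX5 peak over input, at 2.38-fold to 6.80-fold.

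The other peaks with Fra-1 over input only spanned the same band. Among the stronger ones, the peak at chromosome 20, 48807439 to 48807650, had a pileup of 92.8 over an IgG level of 40.0, a fold of 2.29. On chromosome 4, 229 kb beyond the peak at 74735177, the one at 74964489 to 74964841 had a pileup of 85.8, an IgG level of 37 and a fold of 2.28. Both peaks on chromosome 4 thus combined a high IgG level with a low fold. At chromosome 19, 10397743 to 10397979, a pileup of 79.8 stood over an IgG level of 30.0, a fold of 2.61. At chromosome 15, 63340682 to 63340937, the pileup was 77.8, the IgG level 27 and the fold 2.81. A middle group had pileups of 50.9 to 67.8 and IgG levels of 16 to 31. It was made up of peaks at chromosome 8, 144898072 to 144898279 and 145748095 to 145748498, at chromosome 9, 37903586 to 37903896 and 38068793 to 38069104, at chromosome 15, 65597187 to 65597434, and at chromosome 20, 32251355 to 32251754. The peak at 145748095 starts 61 bp after the one at 145747703, which has the largest q of the 54, and both lie in 1 DDX5 peak over input. Below these, pileups of 40.9 to 48.9 over IgG levels of 10.2 to 14 and folds of 3.04 to 3.74 were listed at chromosome 1, 8763290 to 8763498, chromosome 3, 49756782 to 49757056, chromosome 5, 131825593 to 131825878, chromosome 7, 44104551 to 44104757, chromosome 9, 21559643 to 21559849, chromosome 17, 36666680 to 36666979, chromosome 19, 39898409 to 39898636, and chromosome X, 133678828 to 133679221. The weakest, besides the one on chromosome 16 given above, were a peak at chromosome 11, 66045357 to 66045566, with a pileup of 27.9, an IgG level of 6.80 and a fold of 3.71, and a peak at chromosome 17, 80188747 to 80188953, with 30.9, 8.20 and 3.47.

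The 54 peaks were spread over 16 of 23 chromosomes (1 to 22 and X), and none lay on another scaffold. Chromosome 9 held 8 (14.8%, interval 6.62% to 27.1%), against 6.45% of DDX5 peaks over input, and chromosomes 17 and 19 held 6 each (11.1%, 4.19% to 22.6%), against 7.13% and 7.95%. Chromosome 2, with 3.30% of the DDX5 peaks over input, held none (interval up to 6.60%). Neighbouring peaks are not independent: 12 of the 54 formed 6 pairs with gaps of 61 to 2110 bp, on chromosomes 1, 5, 8, 9, 19 and 20, which left 48 separate places. Of these, chromosome 9 held 7 (14.6%, interval 6.07% to 27.8%), and counted so, the interval contained the share of the list over input on each of the 16 chromosomes. The next smallest gap was 19726 bp, on chromosome 1.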

How the data were processed

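One library each of DDX5 ChIP, Fra-1 ChIP, IgG ChIP and input DNA from BT549 cells was used. The submitters' processing notes name CASAVA 1.8, Bowtie 0.12.9, HOMER and the build hg19, without their roles. The sources used here name no peak caller and give no read numbers, so depth per library is unknown. Per the file headers, each deposited peak has a pileup, taken as signal, and a fold enrichment, a ratio. The authors' lists also hold 2 columns of −log10 values without readable headers, and the second was taken as −log10 q. At summits found with both controls, pileups over IgG were 0.998 (DDX5) and 0.884 (Fra-1) times the whole numbers over input, to within 0.05 fragments at 29 and 7973 summits, so the authors scaled them to the IgG library.

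The peaks on chromosome 14 were left out by position. The control level was computed as the pileup plus 1 over the fold, minus 1, which assumes that the deposited fold was formed in that way. Where peaks overlapped by at least 1 bp, the one with the nearest summit was the partner. Input levels and Fra-1 pileups were brought to IgG depth with these factors. The counting interval of a DDX5 to IgG ratio is the exact binomial interval of fragments rounded to whole numbers. It treats the local IgG level as a count, though some levels, such as 4.60, are not whole numbers. Summits are also maxima, so the interval is approximate. The peaks described singly were the 5 highest in fold, in IgG level and in width, the 5 lowest in −log10 q, and those without DDX5 over input, with Fra-1 over IgG or without Fra-1. All others are given by position. The peak set, rules and classes were chosen with earlier results of these data known. Alternatives changed the overlap rule, the thresholds, the joining distance and the peaks kept. The overlap code was tested on simulated data. Genes and sequences of hg19 were not analysed here, so positions carry no gene names. The work used scipy 1.17.1 for intervals, pandas 2.3.3 and numpy 2.4.6 for tables, and matplotlib 3.10.9 for plots, under Python 3.11.15.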

Additional observations from a re-analysis of the deposited data

How the results depend on the processing

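Of 36 alternatives to 10 results, 30 stayed within the exact binomial interval of the reported share or median, or within 1.5 times of a count, and 6 did not. The median ratio of Fra-1 to IgG at the 47 peaks with a Fra-1 peak over input, 1.86, counts among the 30. It became 1.48 with summits within 100 bp, exactly the lower end of its interval. Among the 30, those that kept only the numbered chromosomes and X could not move, since none of the 54 peaks lay on another scaffold. They say nothing about stability. The share of the 54 peaks with a DDX5 peak over input, 98.1%, became 79.6% with summits within 100 bp, 85.2% within 500 bp and 100% for peaks at or above their median −log10 q. The share with a Fra-1 peak over input, 87.0%, became 42.6% with summits within 100 bp and 63.0% with Fra-1 peaks at or above their median fold. Like shares over all DDX5 peaks over input are not given here, so both values describe the 54 peaks alone. The share of DDX5 peaks over input called again at the 54 peaks, 0.443%, became 11.3% at 8-fold and above. A threshold on the other list leaves fewer peaks to overlap. The move to 100% leaves out the 1 peak without a DDX5 peak over input, whose −log10 q was 3.92. For the other moves the cause was not tested. Leaving out peaks with a summit within 25 bp of an edge, other summit distances for the IgG to input ratio, and counting neighbouring peaks as 1 place were chosen after seeing the data. No paired analysis was possible because each antibody has 1 library. Shares out of 54 have wide intervals, and folds over IgG levels under 5 rest on few DDX5 fragments.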
